A study of Mus musculus with 6 samples.

Results

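The genes described here are the alcohol, retinol and retinaldehyde dehydrogenases that take vitamin A alcohol to retinoic acid. They were chosen by symbol, as the rows of the count table named Adh1, Adh4, Adh5, Adh7, Rdh10, Rdh11, Aldh1a1, Aldh1a2, Aldh1a3 and Aldh8a1. Of these 10 genes, 9 had a row among the 21534 rows of the table, and 7 were among the 13700 genes with enough reads to be tested. Aldh1a2 is not analysed here.

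The organoids were enteroids, closed epithelial cultures grown from the ileum of WT C57Bl/6 mice. All of them were first kept for 96 hours with 10 µM CHIR99021, which blocks the kinase GSK3, switches on Wnt signalling and favours stem cells. The retinoic acid group then received 10 µM all-trans retinoic acid for 24 hours, and the vehicle group received DMSO for the same time. Each group had 3 libraries of polyadenylated RNA, with 15080190 to 21833846 reads over genes in the retinoic acid libraries and 14919144 to 16927696 in the vehicle libraries. The age of the mice is not given in the labels. Nor do the labels say whether replicates were separate mice or separate cultures, so the p-values reflect the spread among these libraries, which may be technical.

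Retinoic acid is made from retinol in a pair of oxidations. The first, from retinol to retinaldehyde, is reversible and is carried out by membrane-bound retinol dehydrogenases of the short-chain family and by cytosolic alcohol dehydrogenases. The second, from retinaldehyde to retinoic acid, is irreversible and is carried out by retinaldehyde dehydrogenases of the Aldh1a family. In the intestine the epithelium takes up dietary carotenoids and vitamin A and is itself a source of retinoic acid.

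Library 3 of each group lay apart from the others on the second principal component of all tested genes, which held 20% of the variance. The first component held 44.8% and separated the treatments. All 8 intestinal epithelium markers were tested (Epcam, Cdh1, Krt8, Krt18, Krt19, Vil1, Cdx1 and Cdx2), with a summed level of 10940 to 11990 CPM in the retinoic acid libraries and 11180 to 11940 CPM in the vehicle libraries. CPM are counts per 1000000 reads of the scaled library. The 15 non-epithelial markers in the table summed to 11.0 to 15.1 CPM with retinoic acid and 11.6 to 13.8 CPM with vehicle. Markers of stem cells were present in both groups, and are given after the results on the enzymes.

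The alcohol dehydrogenase genes lie side by side on 1 strand of chromosome 3, and the 3 enzymes called higher with retinoic acid, Adh4, Adh1 and Adh5, are all in this cluster. The DNA before the RefSeq start of each is shown because these neighbours had the widest range of responses among the enzymes. The sequences are from RefSeq on GRCm38.p6, plus strand, and each is cut so that it ends before the first annotated exon base in its window. For Adh4 and Adh5 they end just before the start of the gene in the count table. For Adh1 the RefSeq start lies inside the longer gene interval of the count table, so the stretch shown lies within the counted gene and not before its first exon. Capitals mark the hexamer AGGTCA, the consensus core that retinoic acid receptors and other nuclear receptors bind.

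Adh4, chr3:138415247-138415465: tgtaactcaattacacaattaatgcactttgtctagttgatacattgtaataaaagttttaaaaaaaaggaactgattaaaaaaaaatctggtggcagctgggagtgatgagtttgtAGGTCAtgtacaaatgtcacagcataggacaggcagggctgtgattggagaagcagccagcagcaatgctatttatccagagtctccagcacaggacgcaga
Adh1, chr3:138277335-138277493: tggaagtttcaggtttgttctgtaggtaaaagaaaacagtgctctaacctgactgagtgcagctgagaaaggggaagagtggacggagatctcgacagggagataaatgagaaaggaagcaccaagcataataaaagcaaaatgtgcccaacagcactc
Adh5, chr3:138442843-138443092: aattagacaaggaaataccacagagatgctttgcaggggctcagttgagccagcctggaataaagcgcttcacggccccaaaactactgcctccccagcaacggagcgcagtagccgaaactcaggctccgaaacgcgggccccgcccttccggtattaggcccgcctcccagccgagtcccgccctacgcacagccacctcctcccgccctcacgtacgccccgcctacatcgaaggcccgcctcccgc

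The search covered the whole RefSeq promoter window, from 250 bases before to 50 bases after the start, on both strands. Windows were found for 8 of the 10 genes. Adh4 held AGGTCA at 2 positions, −133 to −128 and −11 to −6 relative to the RefSeq start. The match at −11 to −6 lies past the start of the gene in the count table, so it is not in the stretch shown. For Rdh11, 1 of the windows held AGGTCA once, at −147 to −142. The windows of Adh1 and Adh5 held none. Among all 32851 promoter windows 16.3% held AGGTCA at least once and 1.81% held it at least 2 times. Retinoic acid receptors bind direct repeats of such hexamers, so direct repeats spaced by 1, 2 or 5 bases were searched as well. Each hexamer of a repeat could be AGGTCA, the variant GGGTCA, the variant AGTTCA or the variant GGTTCA. No window of these genes held one, and 0.588% of all windows did. A match is a description of the letters, and its absence says only that they are not in this window.

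The question of the comparison was how organoids enriched for stem cells respond to retinoic acid. Of the 7 tested enzymes 3 were called higher with retinoic acid, all of them alcohol dehydrogenases, and 0 were called lower (edgeR's quasi-likelihood test with Benjamini-Hochberg adjustment over all tested genes, threshold 0.05). Over all 13700 genes, 9.46% were called, 5.37% higher and 4.09% lower. No enzyme had a negative log2 fold change with an unadjusted p under the same threshold, and DESeq2 and limma-voom also called 0 lower. In 4 of the 7, Adh1, Adh4, Adh5 and Rdh11, all retinoic acid libraries lay above all vehicle libraries, which was so for 12.9% of all tested genes (25.5% had groups that did not overlap in either direction). The median log2 fold change of the 7 was 0.23, against −0.008 over all tested genes. Among the 7, Adh4 had enough reads to be tested only through the retinoic acid group. These counts and the median therefore include a gene admitted by its level there. The reads of the 9 enzymes together made 555.6 to 566.4 CPM in the retinoic acid libraries and 469.2 to 486.7 CPM in the vehicle libraries. These are bulk samples, in which a change in the number of cells of a type and a change in RNA per cell cannot be told apart.

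**Figure D1:**
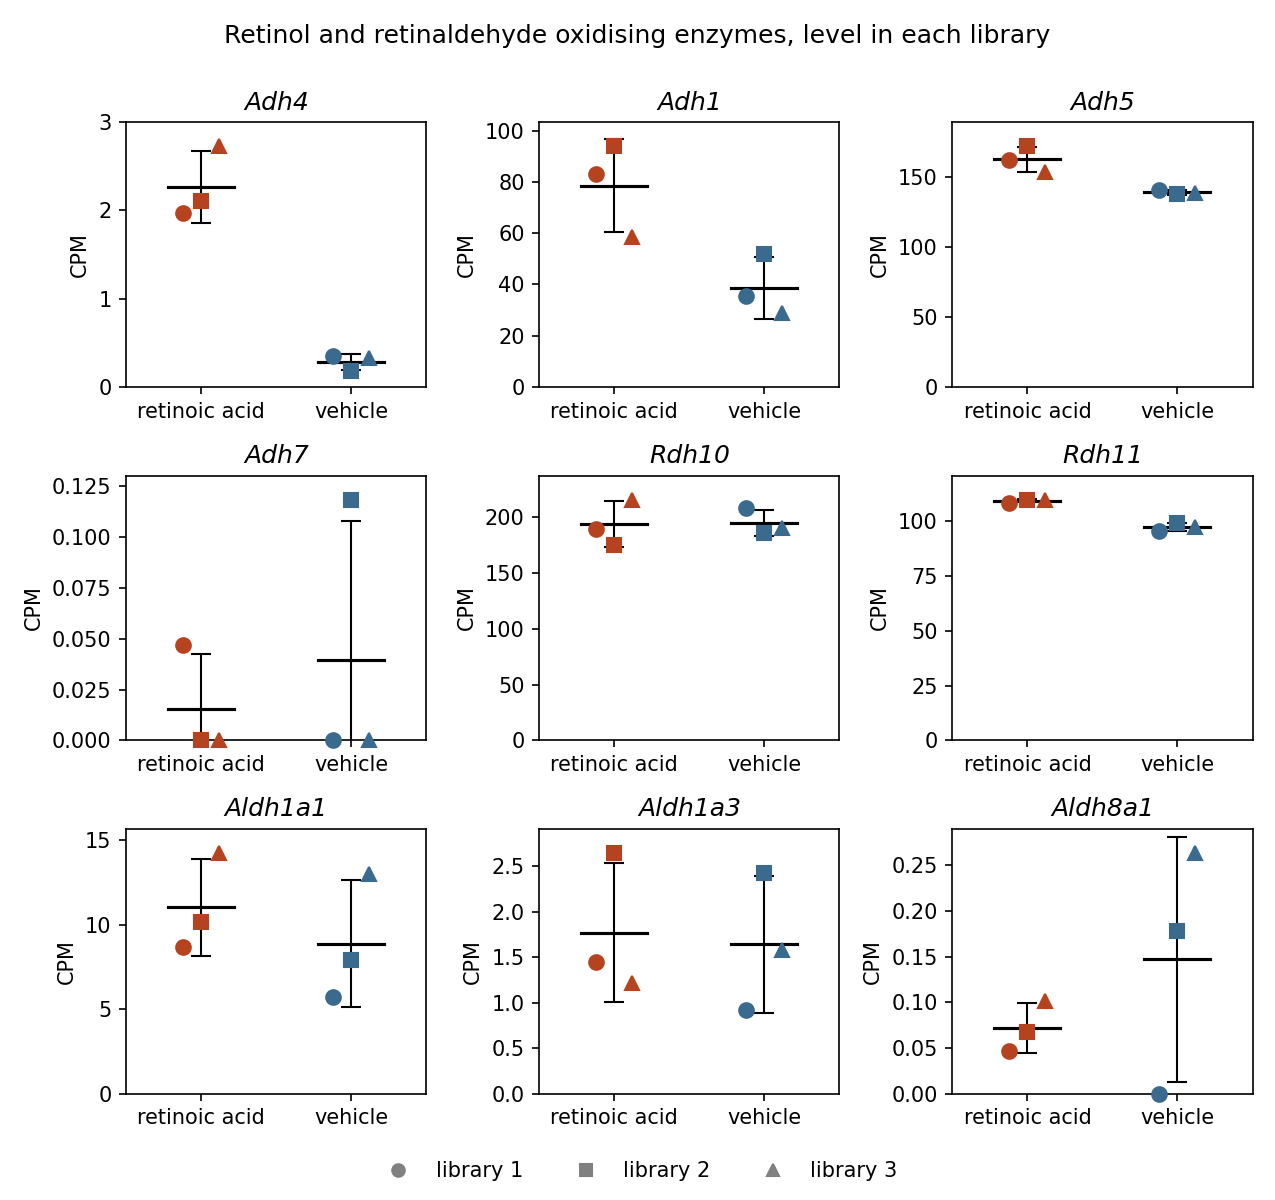
Level of each enzyme in CPM (linear axes from 0) in the 3 retinoic acid libraries (red) and the 3 vehicle libraries (blue), with the symbol showing the library number, the horizontal line the mean and the bar 1 SD (cut at 0 for Adh7). The groups of Adh4, Adh1, Adh5 and Rdh11 do not overlap, while those of Adh7, Rdh10, Aldh1a1, Aldh1a3 and Aldh8a1 do.

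Adh4 had the largest change of the 7. It encodes the class II alcohol dehydrogenase, known mainly from liver, which oxidises retinol and long-chain alcohols, and it lies at chr3:138415466-138430892. Adh4 had 42, 31 and 54 reads in retinoic acid libraries 1, 2 and 3, against 6, 3 and 5 reads in vehicle libraries 1, 2 and 3. On the CPM scale this was 2.27 ± 0.406 with retinoic acid and 0.285 ± 0.0929 with vehicle (SD, n = 3 each). The lowest retinoic acid library was far above the highest vehicle library, although the vehicle level rests on 14 reads in all. The log2 fold change was 2.97 with a standard error of 0.40, which is 7.83-fold with a 95% interval of 4.30 to 14.3 (edgeR adjusted p = 0.00029). Adh4 passed the filter on low counts only through the retinoic acid group, so that it was tested at all depended on its level there. With no such filter it was also called, at a log2 fold change of 2.98 (edgeR adjusted p = 4.642e-09). The p-values of that fit cannot be set beside those of the main fit. For Adh1 the edgeR adjusted p went from 0.00272 to 2.381e-31, while the log2 fold change stayed at 1.02 and 1.03. The smaller p of Adh4 without the filter is therefore not stronger evidence.

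Adh1 encodes the class I alcohol dehydrogenase, a cytosolic enzyme of ethanol and retinol oxidation, and lies at chr3:138260991-138290698. Adh1 had 1774, 1387 and 1157 reads in retinoic acid libraries 1, 2 and 3, against 611, 878 and 436 in vehicle libraries 1, 2 and 3. Its level was 83.2, 94.0 and 58.5 CPM with retinoic acid and 35.3, 52.0 and 28.7 CPM with vehicle. The groups did not overlap, but the lowest retinoic acid library, number 3, was close to the highest vehicle library, number 2. Within each group library 2 was highest and library 3 lowest. The log2 fold change was 1.02 with a standard error of 0.18, or 2.02-fold (edgeR adjusted p = 0.00272). With the replicate number as a block the change was 1.04 with a standard error of 0.0728. The exons of Adh1 share 136 bases with an antisense gene model, Gm16559, and whether the counting used strand is not given in the sources used here.

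Adh5, at chr3:138443093-138455499, encodes the class III enzyme, which is expressed in most tissues and is best known for clearing formaldehyde bound to glutathione. Adh5 stood at 162, 172 and 154 CPM in retinoic acid libraries 1, 2 and 3, against 141, 138 and 138 CPM in vehicle libraries 1, 2 and 3. The difference was small but the vehicle libraries lay very close together. The log2 fold change was 0.23 with a standard error of 0.06, or 1.17-fold with an interval of 1.07 to 1.28 (edgeR adjusted p = 0.0318). The call was lost when any 1 library other than retinoic acid 3 was left out (log2 fold change 0.19 to 0.27 and edgeR adjusted p 0.00856 to 0.147 over the 6 omissions).

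Adh7, the class IV enzyme of the upper digestive tract and an efficient retinol dehydrogenase, was close to absent. It had 1, 0 and 0 reads in the retinoic acid libraries and 0, 2 and 0 in the vehicle libraries and was not tested. At this depth neither group can be told from 0. In the authors' deposited table the FDR was 1.55e-05 for Adh4, 0.0347 for Adh1 and 0.0158 for Adh5.

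The cluster holds 3 more alcohol dehydrogenase genes between Adh1 and Adh4. From left to right Adh7, Adh1, Adh6a, Adh6b, the pseudogene Adh6-ps1, Adh4 and Adh5 span 237.7 kb, with gaps of 12.2 to 27.6 kb between neighbours. Adh6a, whose product belongs to the same family and is little studied, was the only one of the 3 with enough reads to be tested. Adh6a had 5312, 4644 and 3698 reads in retinoic acid libraries 1, 2 and 3, against 1931, 2722 and 1345 in vehicle libraries 1, 2 and 3. Its log2 fold change was 1.05 with a standard error of 0.19 (edgeR adjusted p = 0.0024). Adh6b had 11 reads over the retinoic acid libraries and 5 over the vehicle libraries, and Adh6-ps1 had 0 and 4. Neighbours could differ widely: Adh5, changed 1.17-fold, starts 12.2 kb from the end of Adh4, changed 7.83-fold.

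**Figure D2:**
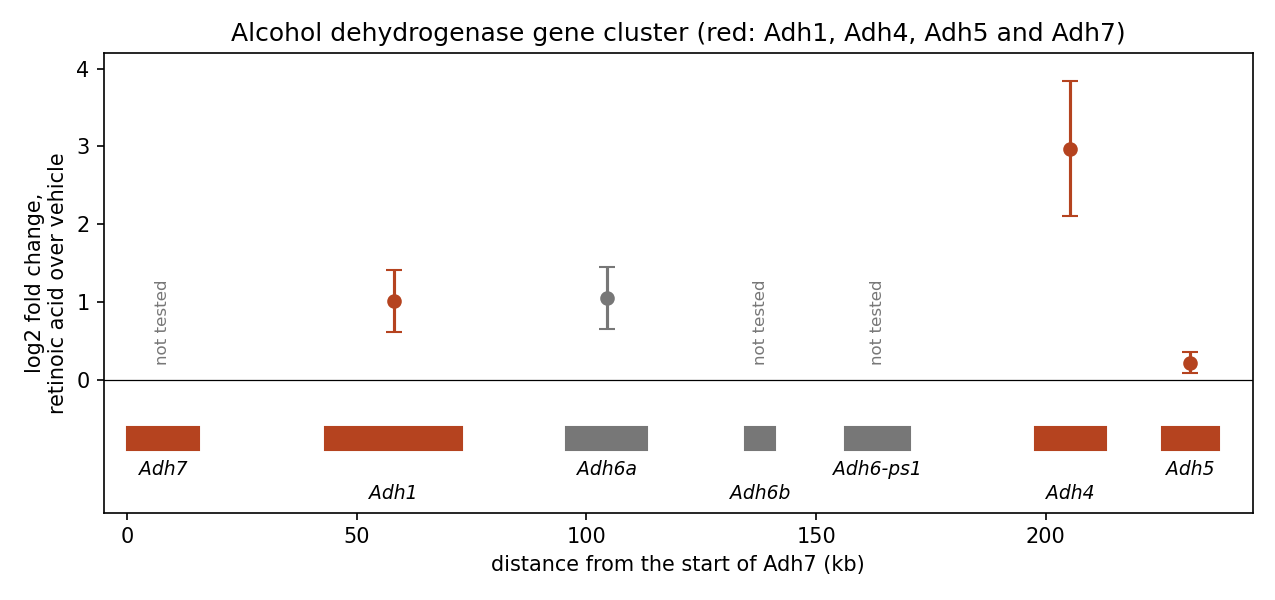
Alcohol dehydrogenase gene cluster, with position in kb from the start of Adh7 on the x axis and the log2 fold change of retinoic acid over vehicle on the y axis; points are estimates and bars their 95% intervals. Boxes show the genes to scale (red for Adh1, Adh4, Adh5 and Adh7, grey for the other genes), and Adh7, Adh6b and Adh6-ps1 had too few reads to be tested.

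Adh1 and its neighbour Adh6a kept nearly the same ratio in all 6 libraries. The reads of Adh1 per read of Adh6a were 0.299 to 0.334 in the retinoic acid libraries and 0.316 to 0.324 in the vehicle libraries, while the level of Adh1 itself ranged from 28.7 to 94.0 CPM. Adh1 made 25.0%, 23.0% and 23.8% of the reads of both genes in retinoic acid libraries 1, 2 and 3, against 24.0%, 24.4% and 24.5% in vehicle libraries 1, 2 and 3. In retinoic acid library 1 the exact binomial interval of that share was 24.0% to 26.1%, and in vehicle library 1 it was 22.4% to 25.8%, which covers counting error only. The exons of Adh1 and Adh6a share no stretch of 50 bases, while Adh1 shares 0.18% of its 50-base stretches with Adh6-ps1. By the root mean square difference of centred log2 profiles over the 6 libraries, Adh6a was the nearest of 11773 genes to Adh1 at 0.0511, and the nearest to Adh6a was Adh1. Next to Adh1 were Ptges, the inducible prostaglandin E synthase, at 0.120 and the antisense transcript Rap1gapos at 0.121, both called higher (edgeR adjusted p = 0.0368 and 0.0344). Both calls were lost without retinoic acid library 1 or 2 or vehicle library 1 or 3 (edgeR adjusted p up to 0.138 for Ptges and 0.135 for Rap1gapos). Ptges and Rap1gapos were picked for likeness to Adh1, itself called higher in the same libraries, so their calls are not separate results.

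**Figure D3:**
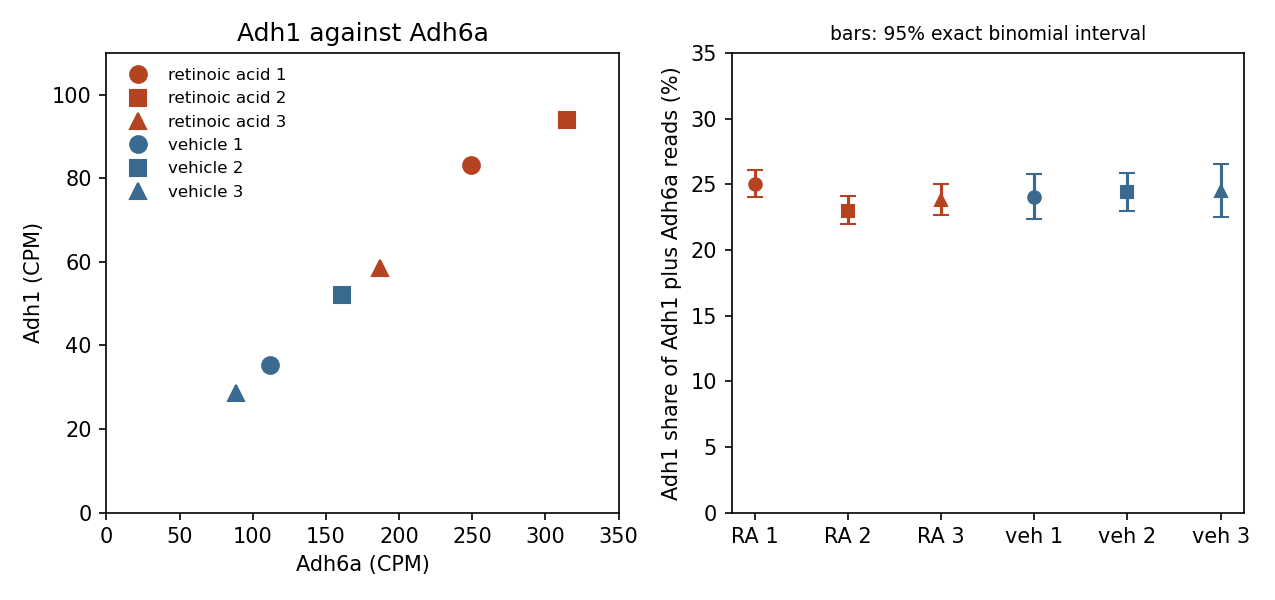
Left, level of Adh1 against that of Adh6a in CPM in each library (red retinoic acid, blue vehicle). Right, percent of the reads of both genes that fell on Adh1 in each library, with its 95% exact binomial interval (RA, retinoic acid; veh, vehicle). The points on the left rise along 1 line with retinoic acid library 2 highest and vehicle library 3 lowest, and the shares on the right stay between 23.0% and 25.0%.

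Because the neighbours changed by different amounts, the make-up of the alcohol dehydrogenase reads differed between the groups. These are shares of reads, not corrected for length. Of the reads on Adh1, Adh4, Adh5, Adh7, Adh6a and Adh6b, Adh5 held 32.7%, 29.5% and 38.3% in retinoic acid libraries 1, 2 and 3, against 48.9%, 39.2% and 54.0% in vehicle libraries 1, 2 and 3. Adh6a held 50.2%, 54.0% and 46.5% with retinoic acid and 38.7%, 45.9% and 34.6% with vehicle. Adh5 gave the largest part in vehicle libraries 1 and 3, and Adh6a gave it in vehicle library 2 and in all retinoic acid libraries. The shares of Adh5, Adh6a and Adh4 did not overlap between the groups, while those of Adh1 did. Shares of a whole depend on each other, so the share of Adh5 was lower although its own level in CPM was higher with retinoic acid. The genes with the profiles nearest to Adh4 were Acot1 (0.191), Tsku (0.202) and Vnn1 (0.232). These profiles add 0.5 CPM to each level, which is more than the 0.285 CPM of Adh4 in vehicle. The change of Adh4 in its profile is therefore smaller than its log2 fold change of 2.97, and the likeness is to that reduced change. Acot1 encodes an acyl-CoA thioesterase, Tsku a secreted Wnt and TGF-beta modulator and Vnn1 a pantetheinase. All 3 were called higher, with log2 fold changes of 2.17, 1.60 and 1.67 (edgeR adjusted p = 5.242e-07, 3.724e-09 and 3.618e-06). Genes picked for likeness to a called enzyme in the same libraries are prone to the same call, so these calls are not separate results. The value of Acot1 may be affected by reads of its close relative Acot2, and the sequence shared by them was not measured. Nearest to Adh5 were Cdk5rap3 (0.0198), Perp (0.0225) and Elovl5 (0.0227), of which Perp, a desmosome-associated p53 target, was called at a log2 fold change of 0.20 (edgeR adjusted p = 0.0365). That call was lost without any 1 library other than retinoic acid 3 (edgeR adjusted p up to 0.162). Perp too was picked for likeness to a called enzyme.

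The short-chain retinol dehydrogenases did not pass the threshold. Rdh10, at chr1:16105774-16133734, is the main physiological retinol dehydrogenase of the mouse embryo. Rdh10 stood at 190, 175 and 216 CPM in retinoic acid libraries 1, 2 and 3, against 208, 186 and 190 CPM in vehicle libraries 1, 2 and 3. The groups overlapped throughout. The log2 fold change was −0.01 with a standard error of 0.08 and an interval of −0.17 to 0.16 (edgeR adjusted p = 0.977), which is 0.889-fold to 1.11-fold.

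Rdh11, at chr12:79174337-79192293, encodes a microsomal enzyme that acts mainly as a retinaldehyde reductase. Rdh11 stood at 109, 110 and 110 CPM in retinoic acid libraries 1, 2 and 3, against 95.7, 99.4 and 97.3 CPM in vehicle libraries 1, 2 and 3. The groups did not overlap and the spread within each was small (110 ± 0.752 and 97.5 ± 1.87 CPM, SD, n = 3 each). A log2 fold change of 0.17, or 1.12-fold, did not pass the threshold (edgeR adjusted p = 0.0999). It passed with the replicate number as a block (log2 fold change 0.17, edgeR adjusted p = 0.0324).

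None of the retinaldehyde dehydrogenases was called. Aldh1a1, at chr19:20601961-20643462, is the cytosolic form known from adult epithelia and liver. Aldh1a1 had 185, 150 and 282 reads in retinoic acid libraries 1, 2 and 3, against 99, 134 and 198 in vehicle libraries 1, 2 and 3. In CPM it stood at 8.67, 10.2 and 14.3 with retinoic acid and 5.72, 7.94 and 13.0 with vehicle. Library 3 was the highest in both groups, and each retinoic acid library lay above the vehicle library of the same number, yet the groups overlapped. Its log2 fold change was 0.32 with a standard error of 0.25 and an interval of −0.21 to 0.85 (edgeR adjusted p = 0.521). With the replicate block it was 0.34 (edgeR adjusted p = 0.103). Of the 50-base stretches of Aldh1a1, 3.06% also occur in its close copy Aldh1a7, where they are 7.49% of the stretches. The reference model of Aldh1a1 used for this starts before the counted gene. How reads on shared stretches were counted is not given in the sources used here, so the effect on its value is unknown.

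Aldh1a3, at chr7:66390892-66427517, is the form with the narrowest preference for all-trans retinaldehyde. It had 31, 39 and 24 reads in retinoic acid libraries 1, 2 and 3, against 16, 41 and 24 in vehicle libraries 1, 2 and 3. Library 2 was highest in both groups, and the groups overlapped. Aldh1a3 had a log2 fold change of 0.07 with an interval of −0.78 to 0.93 (edgeR adjusted p = 0.944), which is 0.583-fold to 1.90-fold. Aldh8a1, named for 9-cis-retinaldehyde and also an enzyme of tryptophan breakdown, lies at chr10:21377291-21396585. It had 1, 1 and 2 reads with retinoic acid and 0, 3 and 4 with vehicle, and was not tested.

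**Figure D4:**
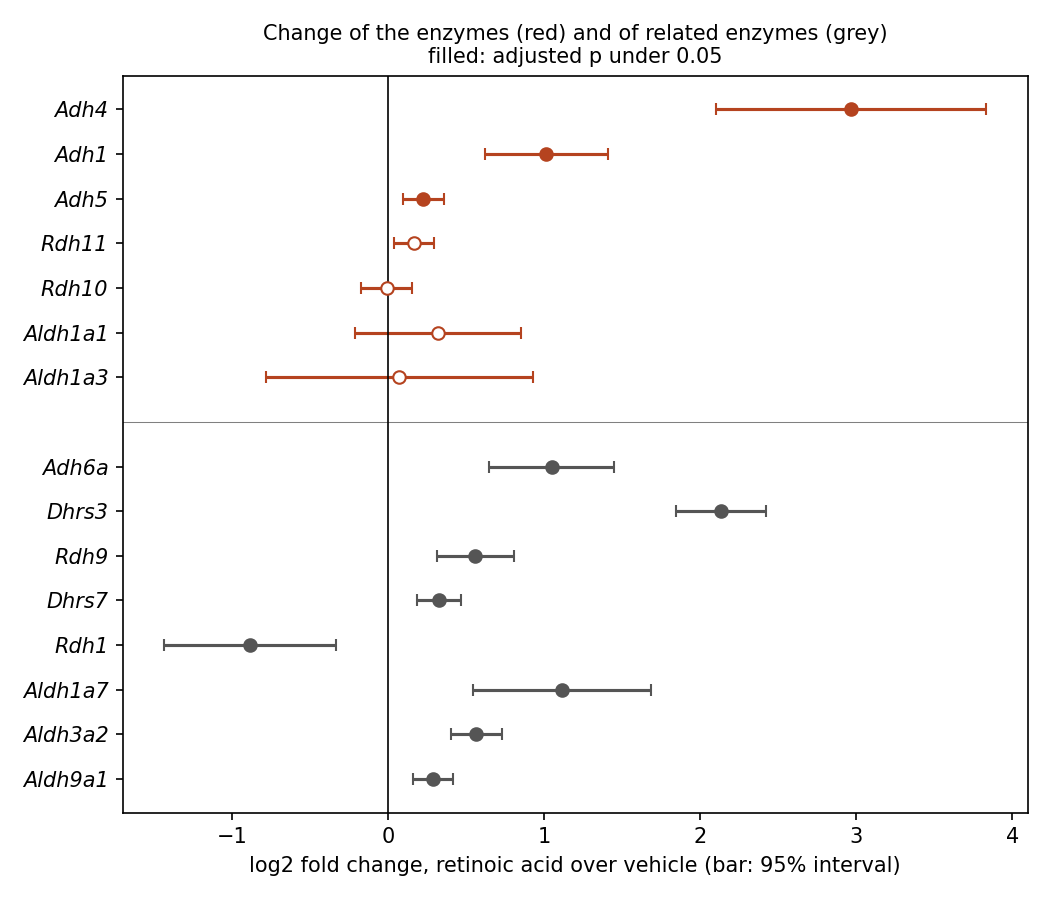
Log2 fold change of retinoic acid over vehicle with its 95% interval for the 7 tested enzymes (red, above the line) and for called genes of the related enzyme lists (grey, below it); filled points have an edgeR adjusted p under 0.05. Adh4, Adh1 and Adh5 are filled, Rdh11, Rdh10, Aldh1a1 and Aldh1a3 are open, and Rdh1 is the only point below 0 among the grey ones.

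To set the enzymes beside each other, levels were divided by the length of each gene's longest coding transcript. On this scale Adh5 was highest at 101 CPM per kb with retinoic acid and 86.6 with vehicle, with no library overlapping those of another enzyme. Rdh10 followed, at 53.9 CPM per kb with retinoic acid and 54.2 with vehicle. Adh1 stood at 52.7 CPM per kb with retinoic acid and 25.9 with vehicle, and Rdh11 at 33.6 and 29.9. In the retinoic acid group Adh1 overlapped Rdh10 and lay above Rdh11, while in the vehicle group Adh1 overlapped Rdh11 and lay below Rdh10. Aldh1a1, at 4.68 CPM per kb with retinoic acid and 3.77 with vehicle, was far below Adh5, Rdh10, Adh1 and Rdh11 and above Adh4 and Adh7. Adh4 stood at 1.73 CPM per kb with retinoic acid, above every library of Aldh1a3 in that group (0.514 on average), and at 0.217 on average with vehicle, where Aldh1a3 averaged 0.478. In vehicle library 1 the values of Adh4 and Aldh1a3 were close, at 0.264 and 0.269. Aldh8a1 and Adh7 were lowest, and their vehicle libraries overlapped. The order of the first 4, and that of Adh4 and Aldh1a3 in vehicle library 1, depend on the length used. Divided by all exon bases, Rdh10 was first at 46.5 with retinoic acid and 46.8 with vehicle, and Adh5 fell to 30.1 with retinoic acid and 25.7 with vehicle.

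**Figure D5:**
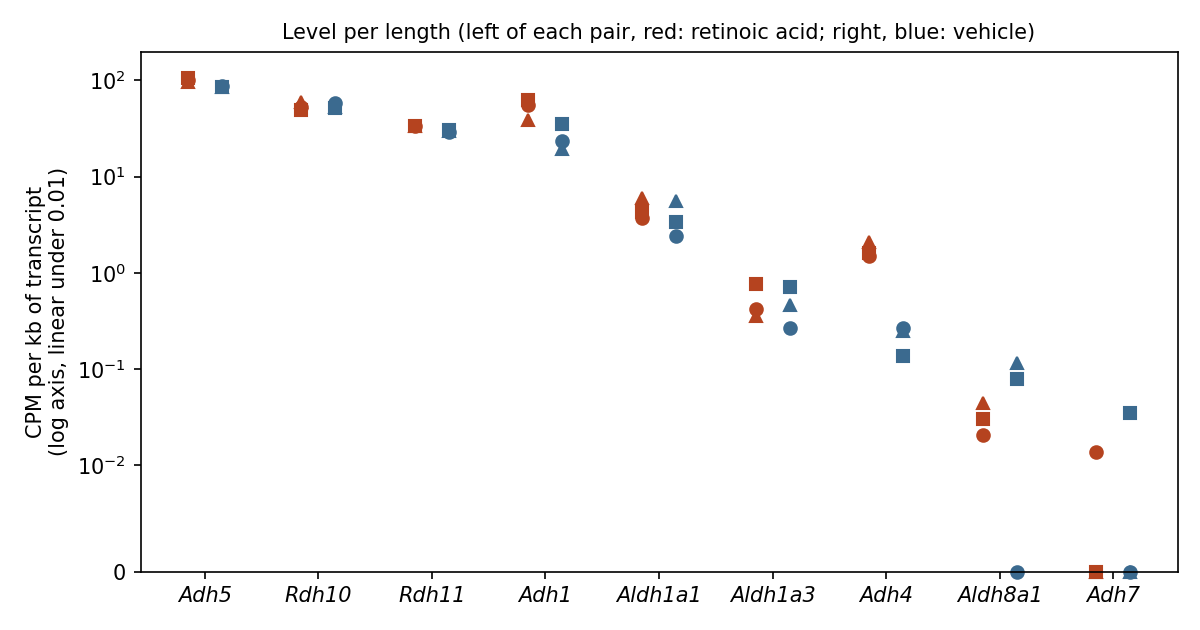
Level per length of each enzyme in CPM per kb of its longest coding transcript, on a log axis that is linear under 0.01, in the retinoic acid libraries (red, left of each pair) and the vehicle libraries (blue, right); circles, squares and triangles are libraries 1, 2 and 3. Adh5 is highest in both groups, Aldh1a1 lies far below Adh5, Rdh10, Rdh11 and Adh1, and Adh4 lies above Aldh1a3 with retinoic acid and on average below it with vehicle.

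Other dehydrogenases of the same families were read as 3 lists. Their counts stand beside 5.37% called higher and 4.09% called lower over all 13700 tested genes. Of 20 other retinol and retinaldehyde dehydrogenases and related genes 12 were tested, of which 3 rose and 1 fell, with a median log2 fold change of 0.01. Dhrs3, which reduces retinaldehyde back to retinol and forms a complex with Rdh10, stood at 64.6, 71.6 and 50.0 CPM in retinoic acid libraries 1, 2 and 3, against 12.3, 16.3 and 13.8 CPM in vehicle libraries 1, 2 and 3. Its lowest retinoic acid library was far above every vehicle library, and its log2 fold change was 2.13 with a standard error of 0.13 (edgeR adjusted p = 1.323e-07). Reads of Rdh10 per read of Dhrs3 were 2.45 to 4.31 with retinoic acid and 11.4 to 17.0 with vehicle. Rdh9, a short-chain dehydrogenase of the Rdh1 group, rose by 0.56 on the log2 scale (edgeR adjusted p = 0.006), and Dhrs7, a microsomal short-chain dehydrogenase, by 0.33 (edgeR adjusted p = 0.00556). Rdh1, a retinol dehydrogenase of that group in the mouse, fell by 0.88 (edgeR adjusted p = 0.0443), a call that was lost without any 1 library other than vehicle 3 (edgeR adjusted p up to 0.214). With the replicate block 4 rose and 2 fell. The added genes, named after their values were seen, were Dhrs9, another retinol dehydrogenase (log2 fold change 0.73, edgeR adjusted p with the block = 0.00218), and Rdh13 (−0.28, edgeR adjusted p with the block = 0.00818).

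Of 5 other alcohol dehydrogenase genes and relatives 4 were tested, and 1, Adh6a, rose. With the block Sord, the sorbitol dehydrogenase, also fell, by 0.21 on the log2 scale (edgeR adjusted p with the block = 0.007, named after its value was seen). Of 20 other aldehyde dehydrogenase and oxidase genes 14 were tested, of which 3 rose and 0 fell, with a median log2 fold change of 0.01. Aldh3a2, the fatty aldehyde dehydrogenase of the endoplasmic reticulum, stood at 195 ± 20.5 CPM with retinoic acid and 132 ± 6.94 CPM with vehicle (SD, n = 3 each), with a log2 fold change of 0.57 (edgeR adjusted p = 0.000258). Aldh9a1, an enzyme of aminoaldehyde oxidation and carnitine synthesis, rose by 0.29 (edgeR adjusted p = 0.00672). Aldh1a7, a close copy of Aldh1a1, stood at 3.70, 3.46 and 3.18 CPM in retinoic acid libraries 1, 2 and 3, against 1.21, 1.54 and 2.04 CPM in vehicle libraries 1, 2 and 3. Its log2 fold change was 1.12 (edgeR adjusted p = 0.0153), and the call was lost without retinoic acid library 1, vehicle library 1 or vehicle library 2 (edgeR adjusted p up to 0.0843). Reads of Aldh1a1 per read of Aldh1a7 were 2.34 to 4.48 with retinoic acid and 4.71 to 6.39 with vehicle, so the groups did not overlap. DESeq2 and limma-voom also called 0 of this list lower, and with the block 5 rose and 2 fell. With no filter, without retinoic acid library 3 and with libraries 1 and 2 of each group only, 1 was called lower.

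Among 24 other genes of retinoid handling and reception 16 were tested, of which 4 rose and 3 fell (over all tested genes 5.37% and 4.09%). Cyp26b1 had enough reads to be tested only through the retinoic acid group, and Lrat only through the vehicle group. These counts therefore include genes admitted by their level in the group where they were high. Cyp26b1, the hydroxylase that breaks retinoic acid down, stood at 987, 1052 and 723 CPM in retinoic acid libraries 1, 2 and 3, against 0.405, 1.36 and 0.790 CPM in vehicle libraries 1, 2 and 3. That is a log2 fold change of 10.07 (edgeR adjusted p = 1.237e-12) from a vehicle level near 0. Isx, the homeobox repressor of carotenoid uptake, rose by 2.76 (edgeR adjusted p = 1.829e-08), and the receptor genes Rarg and Rara rose by 0.53 and 0.25 (edgeR adjusted p = 0.00234 and 0.0349). Scarb1, a carotenoid and lipid uptake receptor, fell by 1.04 (edgeR adjusted p = 0.000933). Lrat, which esterifies retinol for storage, fell by 2.16 with overlapping groups (edgeR adjusted p = 0.0353), and Ttr, a carrier of thyroxine and retinol-binding protein named after its value was seen, fell by 1.07 (edgeR adjusted p = 0.0476). The call of Rara was lost without library 1 or 2 of either group (edgeR adjusted p up to 0.147) and that of Lrat without retinoic acid library 2, vehicle library 1 or vehicle library 2 (edgeR adjusted p up to 0.235). The call of Ttr was lost with limma-voom and without any 1 library other than vehicle 3 (edgeR adjusted p up to 0.196 over the omissions). Without retinoic acid library 2 or without vehicle library 2 the count of genes that fell was 1, and with the block it was 6.

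Most stem cell markers were also called, while most tested markers of each other cell type list were not. Over all tested genes 5.37% were called higher and 4.09% lower. Of 6 stem cell markers 4 fell, namely Lgr5, Olfm4, Smoc2 and Slc12a2, with log2 fold changes of −0.64, −1.67, −0.63 and −0.82 (edgeR adjusted p = 0.000933, 7.426e-06, 4.23e-05 and 1.323e-07). The summed level of the 6 was 959 to 1010 CPM with retinoic acid and 1569 to 1633 CPM with vehicle. Of 12 enterocyte markers 3 rose and 2 fell, with sums of 945 to 1306 CPM with retinoic acid and 1105 to 1310 CPM with vehicle. Fabp1, the liver-type fatty acid binding protein, rose by 4.71, Fabp2 by 0.60 and Mttp by 0.52, while Alpi was among those that fell, by 0.83 (edgeR adjusted p = 5.237e-08, 0.00649, 0.00428 and 0.00539). Without retinoic acid library 3, 4 enterocyte markers rose and 6 fell. Among 7 tested Paneth cell markers Mmp7 rose by 0.63 and Ang4 and Mptx1 fell by 0.48 and 1.34 (edgeR adjusted p = 0.00244, 0.000487 and 0.00137), with sums of 4924 to 5225 CPM with retinoic acid and 5419 to 5850 CPM with vehicle. Among 7 goblet cell markers Clca1 rose by 2.92 and Spdef and Agr2 fell by 0.30 and 0.50 (edgeR adjusted p = 3.971e-10, 0.0279 and 0.00896), with sums of 4874 to 5395 CPM with retinoic acid and 4625 to 5179 CPM with vehicle. The call of Spdef was lost without library 1 or 2 of either group (edgeR adjusted p up to 0.129), and that of Agr2 without vehicle library 1 or 2 (edgeR adjusted p up to 0.0678). Of 9 enteroendocrine and tuft cell markers Pyy rose by 1.11 (edgeR adjusted p = 0.00382), with sums of 903.7 to 1139 CPM with retinoic acid and 840.1 to 1188 CPM with vehicle. Cdx1 was the 1 epithelium marker called, at −0.35 (edgeR adjusted p = 0.0261), and Cd68 the 1 of 4 tested non-epithelial markers called, at 0.75 (edgeR adjusted p = 0.0216). The call of Cdx1 was lost without library 1 or 2 of the retinoic acid group or 2 or 3 of the vehicle group (edgeR adjusted p up to 0.125), and that of Cd68 without library 1 or 2 of either group (edgeR adjusted p up to 0.107). Ptprc, Col1a2, Col3a1, Acta2, Des, Cdh5 and Adgre1 were at or near 0. Pdgfrb, Pecam1 and Vim had more reads and were not called. They stood at 2.75, 1.025 and 1.18 CPM with retinoic acid and 4.11, 1.535 and 0.818 CPM with vehicle. Col1a1 had 14 reads over the retinoic acid libraries and 32 over the vehicle libraries and was not tested. The part of these shifts in the levels of Adh1, Adh4 and Adh5 was not tested.

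Without library 3 of either group the same 3 enzymes passed the threshold, with log2 fold changes of 2.91 for Adh4, 1.02 for Adh1 and 0.26 for Adh5 (edgeR adjusted p = 0.000801, 2.833e-06 and 0.0099). This setting was chosen after the data were seen. Rdh10 was then at −0.11 and Aldh1a1 at 0.46, and neither was called (edgeR adjusted p = 0.379 and 0.133).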

How the data were processed

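The authors deposited 1 table of raw counts by gene and library (6 libraries), together with their p-value, FDR and log2 fold change, which per the file headers come from DESeq. The FDR is an adjusted p-value, and the log2 values are those the authors deposited. Reads were aligned to mm10, per the submitters' processing notes. For the aligner, the annotation and the strand setting, the sources used here give nothing.

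Counts were tested with edgeR 4.0.16 in R 4.3.3 (filterByExpr, TMM factors 0.978 to 1.023, quasi-likelihood test with treatment as its only term, two-sided, Benjamini-Hochberg over 13700 genes). No library lost more than a trace of its reads to the filter (at least 99.89% kept). The standard error is the log2 fold change divided by the square root of F. The biological coefficient of variation was 7.8%. Alternatives were DESeq2 1.42.0, limma-voom 3.58.1, other scaling and filters, a replicate block and omission of each library. Replicates of a group differed by a chi-square of 4.09 to 11.1 per gene, above sampling noise, so none was merged. Same-numbered libraries deviated together (correlations 0.168, 0.13 and 0.353 over 12969 genes). What the replicate numbers share is not given in the labels, so the number was used as a block only in an alternative fit. Libraries with different numbers had correlations of −0.227 to 0.1, and libraries 1 and 2 were hardly told apart as pairs (0.1 and 0.089 across their numbers). In a simulation of this comparison on 13700 genes, 73% of 100 genes changed 1.5-fold and 96% of 100 changed 2-fold were called, and 2 of 171 calls were unchanged genes.

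The genes and lists were chosen with earlier results of these data known. By rule the text names all 10 enzymes, called list members (up to 6 a list by smallest p), Dhrs3, Cyp26b1, the neighbours in the Adh cluster, and for each called enzyme the 3 genes with the nearest profile (at least 1 CPM, pseudocount 0.5 CPM). A gene that the rule takes is not reported here. Current symbols were found for 21102 rows by gene ID and replaced the deposited symbol in 2158. Transcript lengths, overlaps and shared 50-base stretches come from GENCODE vM21 on GRCm38, where 59.4% of the matched rows have the same coordinates as in the table. Coordinates of genes are those of the table, on mm10.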

Additional observations from a re-analysis of the deposited data

How the results depend on the processing

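Adh4 and Adh1 were called higher under every alternative run, with log2 fold changes of 2.72 to 3.15 and 0.84 to 1.29 when each library was left out in turn. The number of enzymes called higher was 3 under other scaling, other filters, DESeq2, limma-voom and libraries 1 and 2 of each group only, 4 with the replicate block and 2 to 3 when each library was left out. The number called lower was 0 throughout. The block added the call of Rdh11 and changed no other call among the 7 enzymes. Over all genes the block gave 1224 higher and 1052 lower, against 736 and 560 without it, and libraries 1 and 2 alone gave 922 and 734. Leaving out each library gave 443 to 978 higher and 289 to 787 lower. Counts moved by over 1.5 times on omitting retinoic acid library 1 (443 and 289), vehicle library 1 (477 and 355) and, for genes lower, vehicle library 2 (346). These omissions leave fewer samples, with 1 group at 2 libraries. Directions that turned were those of enzymes near 0: Rdh10 was at 0.0038 with no filter and at −0.0907 to 0.0594 when each library was left out. Aldh1a3 ranged from −0.2967 to 0.479. The cause was not tested. Few reads lie behind Adh4 in vehicle, Aldh8a1 and Adh7.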
